A study of Mus musculus with 22 samples.

Results

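The interferon-induced genes of the mouse heart were followed in this experiment through the transcripts that antiviral signalling is known to raise: RNA sensors, antiviral effectors, the oligoadenylate synthetases, the ISG15 and ADP-ribosylation machinery, transcription factors of the response, and interferon-inducible GTPases. The group held 50 genes listed by symbol, and each was read from the probe set of that symbol with the highest mean. A named probe set was found for 46 of them (not for Gbp5, Gbp6, Ifi203 and Ifi44), and 44 of these passed the low-signal filter, a log2 intensity above 4 when averaged across the series, as did 18510 named genes in all. Oas3 and Oasl1 stayed below that level, with group means between 3.80 and 4.26 for Oas3 and between 3.04 and 3.39 for Oasl1, and were not tested.

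Whole hearts came from male C57/BL6NCr mice aged 3 to 6 months, kept singly at 30 °C according to the labels. The animals were wild type or carried, on 1 allele and in every cell, a point mutation in the thyroid hormone receptor TRα1 (named TRα1+m), which lowers the affinity of the receptor for its hormone, acts against the intact receptor, and is overcome by a large amount of hormone. Drinking water held 0.01% bovine serum albumin in all groups, and 0.5 mg/L of T3, the active form of the hormone, was added to it for 12 days in the treated ones. Each treatment comprised 6 wild-type and 5 TRα1+m hearts, with 1 Clariom S Mouse array apiece, each taken as a different animal. A difference (log2) is followed by its standard error from limma, a group level by its SD, and a gene is called when its adjusted p over all 21092 tested probe sets is below 0.05.

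A pair of features of the table touches everything that follows. All arrays of TRα1+m hearts lay higher than all arrays of wild-type hearts, with a median gene probe set of 6.99 to 7.09 against 6.46 to 6.63, and the median difference of all tested probe sets between genotypes was 0.36 on water and 0.35 on T3. After joint quantile normalization these medians were -0.01 and -0.00, so counts of calls between genotypes are given on both scales, and levels or overlaps set side by side across genotypes are on the deposited scale and carry this shift, whereas T3 was compared with water within a genotype, where the median probe set differed by 0.01 (wild type) and -0.02 (TRα1+m). The median negative-control probe set stood at 6.23 in wild type on water, 6.14 in wild type on T3, 6.68 in TRα1+m on water and 6.52 in TRα1+m on T3. Of the 44 members, 7, 4, 9 and 1 lay below it in those groups, and a level below it says only that the gene was not above background.

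Type I interferons are secreted proteins that bind the receptor pair IFNAR1 and IFNAR2 on nearly every cell. The receptor switches on the kinases JAK1 and TYK2, which activate the complex ISGF3, with STAT2 and IRF9 among its parts. ISGF3 binds the interferon-stimulated response element in the promoters of a large set of genes, and interferon γ acts through a different site, GAS. The induced proteins detect foreign RNA, cut or hide it, block translation and viral budding, or feed back on the pathway. IRF7 is both a product and a driver of the response. In the heart the pathway is known from viral myocarditis, where cardiomyocytes, fibroblasts, endothelial cells and resident macrophages all respond.

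The element that ISGF3 binds can be read directly in the promoters, which is why a few are shown. RefSeq promoter windows of GRCm38.p6, running from 250 bases before to 50 bases after a transcription start, matched 32 of the 44 members. The core of the element, written as GAAA, any 2 bases and GAAA again and searched on both strands, stood in 16 of these 32 (50.0%) and in 1079 of all 27025 genes with a window (3.99%). The GAS letters TTCNNNGAA, also on both strands, stood in 11 of the 32 (34.4%) and in 9.55% of all genes. The thyroid hormone direct repeat, a pair of AGGTCA with 4 bases between them on either strand, stood in 0 of the 32 and in 4 of all genes, and its single AGGTCA unit in 5 members (15.6%) against 18.1% of all genes. Matches are a description of the letters in these windows and not of binding. In the windows of Ifit3 (chr19:34583279-34583578, plus strand), Rsad2 (chr12:26456403-26456702, minus strand), Bst2 (chr8:71537423-71537722, minus strand), Isg15 (chr4:156200769-156201068, minus strand) and Gbp3 (chr3:142559794-142560093, plus strand, the first of 2 windows of this gene), capitals mark each match to the core of the interferon element on either strand, and overlapping matches run into each other. The first matched base lay at -156, -120, -130, -78 and -45 from the start. The window of Irf7 (chr7:141266375-141266674, minus strand) held no exact match and is shown beside them because its transcript rose furthest. All are written 5′ to 3′ on the strand of the gene.
Ifit3: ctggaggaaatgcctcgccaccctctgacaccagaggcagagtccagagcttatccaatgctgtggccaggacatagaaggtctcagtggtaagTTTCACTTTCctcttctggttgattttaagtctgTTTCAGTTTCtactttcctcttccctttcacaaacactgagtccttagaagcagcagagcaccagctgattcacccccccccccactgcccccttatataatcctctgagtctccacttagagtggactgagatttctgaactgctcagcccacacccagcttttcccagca
Rsad2: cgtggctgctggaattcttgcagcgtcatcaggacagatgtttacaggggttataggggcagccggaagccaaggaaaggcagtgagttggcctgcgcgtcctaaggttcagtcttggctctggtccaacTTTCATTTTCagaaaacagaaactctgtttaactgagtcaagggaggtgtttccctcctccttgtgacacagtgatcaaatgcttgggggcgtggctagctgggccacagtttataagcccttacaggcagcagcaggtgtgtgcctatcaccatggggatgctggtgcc
Bst2: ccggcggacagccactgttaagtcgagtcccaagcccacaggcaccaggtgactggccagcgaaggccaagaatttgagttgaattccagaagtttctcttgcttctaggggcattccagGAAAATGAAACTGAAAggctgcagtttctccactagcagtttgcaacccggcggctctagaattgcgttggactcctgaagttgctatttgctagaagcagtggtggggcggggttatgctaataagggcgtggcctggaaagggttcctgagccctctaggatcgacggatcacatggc
Isg15: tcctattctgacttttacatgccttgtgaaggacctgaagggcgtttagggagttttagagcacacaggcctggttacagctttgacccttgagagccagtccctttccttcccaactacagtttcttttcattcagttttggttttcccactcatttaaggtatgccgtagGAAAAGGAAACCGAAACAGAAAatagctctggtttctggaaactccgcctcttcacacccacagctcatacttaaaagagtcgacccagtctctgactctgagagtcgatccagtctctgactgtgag
Gbp3: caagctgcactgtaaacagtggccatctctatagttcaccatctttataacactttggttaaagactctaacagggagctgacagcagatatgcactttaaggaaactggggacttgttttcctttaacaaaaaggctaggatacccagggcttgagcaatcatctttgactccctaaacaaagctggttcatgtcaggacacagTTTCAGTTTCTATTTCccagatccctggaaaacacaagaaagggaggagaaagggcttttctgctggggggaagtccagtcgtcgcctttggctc
Irf7: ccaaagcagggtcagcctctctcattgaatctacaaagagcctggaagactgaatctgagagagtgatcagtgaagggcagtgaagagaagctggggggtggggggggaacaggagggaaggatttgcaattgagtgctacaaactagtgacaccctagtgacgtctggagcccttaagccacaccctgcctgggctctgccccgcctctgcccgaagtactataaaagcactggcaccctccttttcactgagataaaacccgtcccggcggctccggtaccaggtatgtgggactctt

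T3 raised most interferon-induced genes in hearts of both genotypes and lowered none. In wild type 34 of the 44 were called higher, against 6.26% of all probe sets, and 0 were called lower, against 6.49%, with all 44 differences above 0. In TRα1+m 40 were called higher, against 8.24%, and 0 lower, against 6.92%, again with all 44 differences above 0. The median member differed by 0.97 in wild type (range 0.04 to 2.41) and by 1.54 in TRα1+m (range 0.33 to 4.78). A called rise of at least 2-fold was seen for 20 members in wild type (1.23% of all probe sets) and for 36 in TRα1+m (2.61%). The arrays on T3 lay wholly above those on water for 25 members in wild type (3.65% of all probe sets) and for 39 in TRα1+m (6.85%). In both genotypes 34 members were called, in TRα1+m alone Zbp1, Mx1, Mx2, Isg20, Nmi and Ifi35, and in neither Irf8, Igtp, Iigp1 and Ifi27. The 16 members with the interferon element in the window had a median difference of 1.11 in wild type and 1.75 in TRα1+m, and the 16 without an exact match 0.87 and 1.19. The ranges overlapped, at 0.12 to 1.92 against 0.04 to 2.41 in wild type and 0.90 to 3.52 against 0.33 to 4.78 in TRα1+m.

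**Figure D1:**
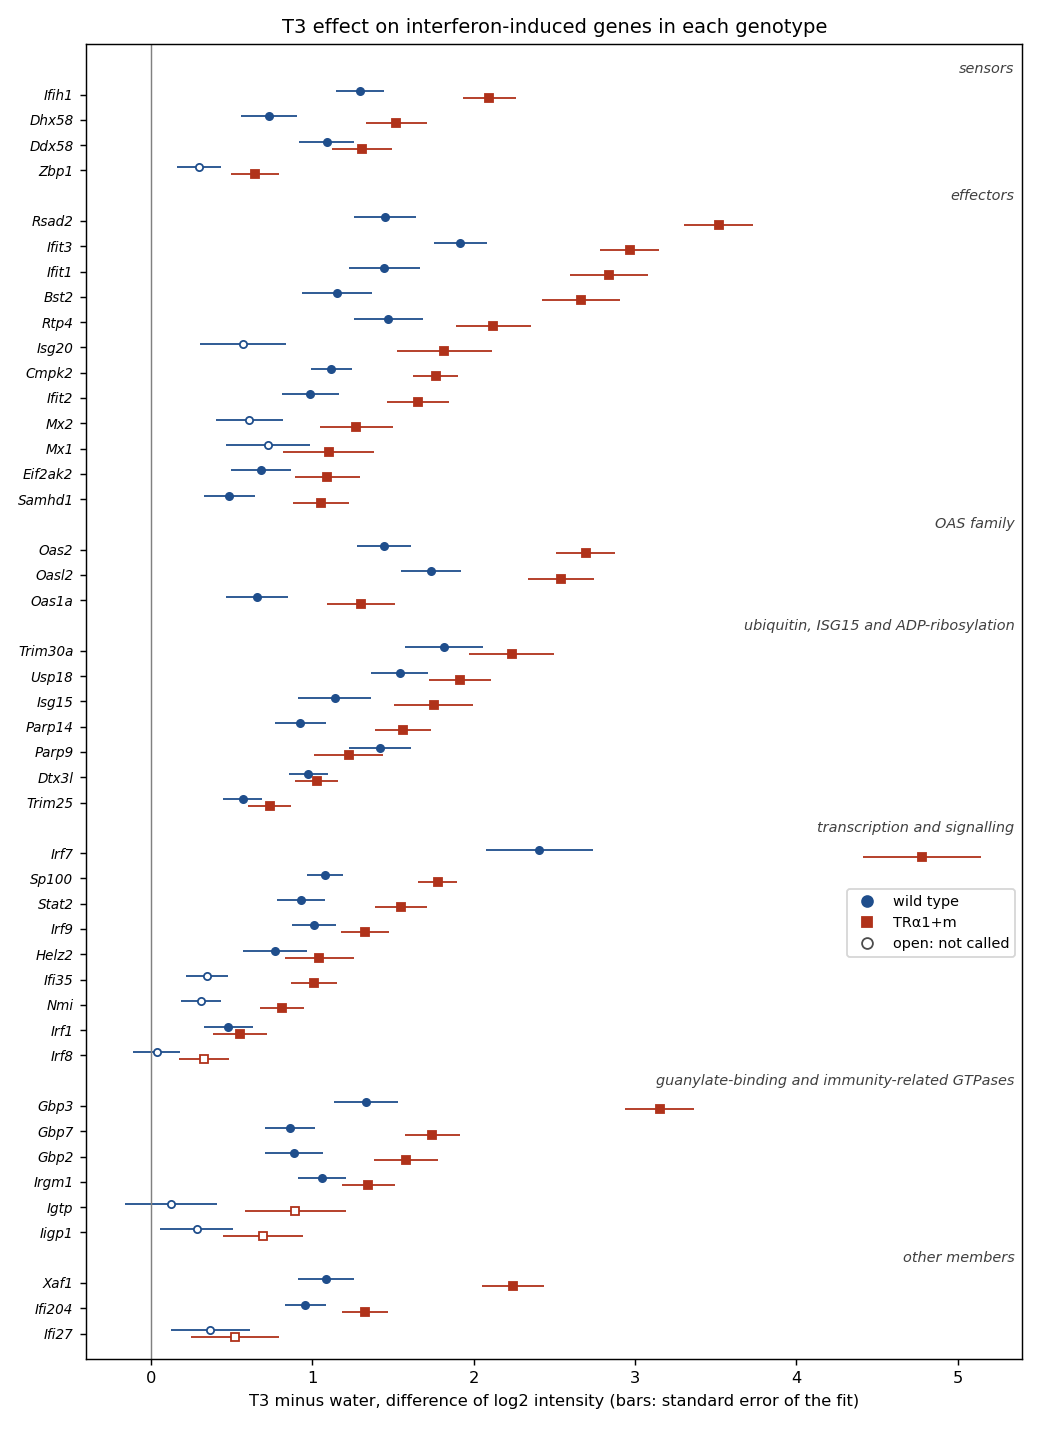
T3 minus water (difference of log2 intensity, horizontal axis) for the 44 members, ordered by role, in wild type (blue circles) and TRα1+m (red squares), with bars for the standard error of the fit and open symbols for genes not called. All points lie above 0, and the TRα1+m point lies to the right of the wild-type point for 43 of the 44 genes, with Parp9 the exception.

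Among the cytosolic RNA sensors, Ifih1 (MDA5, which binds long double-stranded RNA) rose in both genotypes. Its log2 intensity on water ran from 8.53 over a median of 8.77 to 9.40 in wild type and from 9.93 over 10.24 to 10.42 on T3. In TRα1+m the arrays read 8.19, 8.73, 8.83, 8.38 and 8.78 on water and 10.60, 10.51, 10.87, 10.50 and 10.92 on T3. In neither genotype did the T3 arrays overlap with those on water. The rise was 1.30 ± 0.15 in wild type (adjusted p = 1.45e-06) and 2.10 ± 0.16 in TRα1+m (adjusted p = 2.23e-09). Ddx58 (RIG-I, which binds RNA ends with a triphosphate) went from 8.64 to 9.74 (median 9.39) on water to 9.94 to 10.59 (median 10.33) on T3 in wild type. In TRα1+m it read 9.38, 9.42, 9.25, 9.08 and 8.96 on water and 10.23, 10.60, 10.60, 10.82 and 10.38 on T3. Here too the groups stood apart, by 1.09 ± 0.17 (adjusted p = 6.45e-05) and 1.31 ± 0.19 (adjusted p = 1.54e-05), and the sizes in the 2 genotypes were closer than for Ifih1. Dhx58 (LGP2, a helper of both) was called at 0.73 and 1.52 from levels below the negative controls. Raised to that level, its values no longer gave a call in either genotype. Zbp1, a sensor of Z-form nucleic acids, lay below the negative controls in all 4 groups, so its call in TRα1+m (0.65 ± 0.15, adjusted p = 0.00312) rests on values within background.

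The antiviral effectors held some of the steepest rises, and all 12 were called in TRα1+m, 9 of them in wild type, with the call of Mx1 in TRα1+m lost when values were raised to the negative controls. Rsad2 (viperin, which makes a chain-terminating nucleotide) ran from 8.01 over a median of 8.83 to 8.99 in wild type on water and from 9.83 over 10.11 to 10.34 on T3. In TRα1+m the arrays read 7.12, 8.33, 7.27, 7.44 and 7.30 on water and 11.18, 10.69, 11.14, 11.12 and 10.92 on T3. The TRα1+m hearts were thus the lowest of all groups on water and the highest on T3, and T3 arrays were clear of water arrays in both genotypes. The rise was 1.45 ± 0.19 (2.74-fold, adjusted p = 9.16e-06) in wild type and 3.52 ± 0.21 (11.5-fold, adjusted p = 3.72e-11) in TRα1+m.

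Ifit3, whose family binds foreign RNA and limits its translation, started at the same level in both genotypes. It ran from 9.07 to 10.39 (median 9.56) in wild type on water and from 11.25 to 11.84 (median 11.58) on T3, and in TRα1+m read 9.50, 9.91, 9.89, 9.37 and 9.74 on water and 12.61, 12.49, 12.76, 12.57 and 12.81 on T3. Every T3 array of TRα1+m exceeded every T3 array of wild type, while the water groups overlapped. The rise was 1.92 ± 0.17 (3.78-fold, adjusted p = 1.62e-08) and 2.97 ± 0.18 (7.82-fold, adjusted p = 4.21e-11). Ifit1 rose by 1.45 ± 0.22 (adjusted p = 4.79e-05) and 2.84 ± 0.24 (adjusted p = 8.44e-09). Its water level was close to the negative controls in wild type (6.24 ± 0.41, SD, n = 6) and below them in TRα1+m (6.24 ± 0.33, SD, n = 5). Both sizes are thus limited from below, and with values raised to the negative controls they were 1.29 and 2.37, still called. Bst2 (tetherin, which holds budding virus on the cell surface) ran from 8.90 to 10.00 (median 9.44) on water and from 10.08 to 11.09 (median 10.65) on T3 in wild type. In TRα1+m it read 8.61, 9.30, 8.97, 8.14 and 8.54 on water and 11.46, 10.74, 11.29, 11.56 and 11.84 on T3. The groups did not overlap in either genotype, and the distance between them was 1.16 ± 0.22 (adjusted p = 0.000596) and 2.67 ± 0.24 (adjusted p = 2.14e-08). Rtp4, which in mouse binds a flavivirus replication complex, rose by 1.47 ± 0.21 (adjusted p = 2.85e-05) and 2.12 ± 0.23, and Cmpk2, the nucleotide kinase encoded next to Rsad2, by 1.12 ± 0.13 and 1.77 ± 0.14. The 3 effectors not called in wild type were Mx1 and Mx2, dynamin-like GTPases, and Isg20, an exonuclease. Of these, Mx2 was called in wild type with values raised to the negative controls (0.61, adjusted p = 0.0328). Isg20 lay at 9.16 ± 0.55 on water and 9.73 ± 0.67 on T3 (SD, n = 6 each), a difference of 0.57 ± 0.27 (adjusted p = 0.197), and in TRα1+m it rose from 8.16 ± 0.44 to 9.98 ± 0.20 (SD, n = 5 each), by 1.82 ± 0.29 (adjusted p = 7.98e-05). C57BL/6 strains carry a disabled Mx1 gene, and its probe set lay below the negative controls in both water groups.

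The oligoadenylate synthetases make the messenger that activates RNase L. All 3 measured members were called in both genotypes, with medians of 1.45 and 2.54, but only Oasl2, a ubiquitin-like relative, lay above the negative controls throughout. It ran from 7.53 to 8.45 (median 7.98) in wild type on water and from 9.26 to 10.07 (median 9.82) on T3. In TRα1+m the arrays read 7.99, 8.38, 8.43, 8.49 and 7.83 on water and 10.68, 10.53, 10.78, 10.71 and 11.12 on T3. The T3 arrays were above all water arrays in each genotype, by 1.74 ± 0.19 (adjusted p = 4.61e-07) and 2.54 ± 0.20 (adjusted p = 3.30e-09). Oas2 ran from 4.91 to 5.85 (median 5.75) in wild type on water and from 6.77 to 7.36 (median 6.99) on T3, and in TRα1+m read 5.03, 5.06, 4.73, 5.42 and 5.18 on water and 7.96, 7.20, 7.73, 8.03 and 7.97 on T3. The T3 arrays stood above all water arrays in both genotypes, and T3 carried the gene from below to above the negative-control level. Its fitted differences were 1.45 ± 0.17 (adjusted p = 1.56e-06) and 2.69 ± 0.18 (adjusted p = 2.15e-10), and 0.77 and 1.07 with values raised to that level, still called. Oas1a was called at 0.66 and 1.31 and lost both calls at that level. Near-identical family members, such as the Oas1 genes, Ifit3 and Ifit3b, the Trim30 genes and the Gbp cluster, can share probes, so their signals cannot be fully assigned.

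All 7 genes of the ubiquitin, ISG15 and ADP-ribosylation machinery were called higher in both genotypes. Trim30a, a ubiquitin ligase that damps inflammatory signalling in mouse, ran from 6.81 to 8.63 (median 8.15) in wild type on water and from 9.21 to 10.08 (median 9.86) on T3. In TRα1+m it read 6.90, 7.75, 7.44, 7.68 and 8.10 on water and 9.81, 9.52, 9.78, 9.83 and 10.11 on T3. The T3 arrays of the genotypes overlapped, and the difference between the rises of 1.82 ± 0.24 (3.53-fold, adjusted p = 7.98e-06) and 2.24 ± 0.26 (4.71-fold, adjusted p = 1.08e-06) did not pass the test (0.42 ± 0.36, adjusted p = 0.867). Usp18, which strips ISG15 from proteins and blocks the interferon receptor, rose by 1.54 ± 0.18 (adjusted p = 1.29e-06) and 1.91 ± 0.19 (adjusted p = 1.15e-07). Isg15 itself, the ubiquitin-like modifier, was called at 1.14 ± 0.22 and 1.75 ± 0.25 from levels below the negative controls, and lost both calls with values raised to that level. Parp9, an ADP-ribosylation factor that pairs with Dtx3l, was the 1 member with a larger rise in wild type, 1.42 ± 0.19 (adjusted p = 1.17e-05) against 1.23 ± 0.21 (adjusted p = 0.00017), a difference of -0.20 ± 0.29 that did not pass the test (adjusted p = 0.941).

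Transcription factors and signalling components were the most uneven role. Irf7, which drives the second wave of interferon and of induced genes, had the steepest rise of all 44 members in both genotypes. Its arrays ran from 5.33 over a median of 6.83 to 7.69 in wild type on water and from 8.49 over 9.22 to 10.04 on T3. In TRα1+m they read 5.88, 6.79, 5.67, 5.18 and 6.30 on water and 10.36, 10.54, 11.16, 10.59 and 11.06 on T3. Wild-type arrays on water spread more widely than those of any other group for this gene, and the T3 arrays of TRα1+m lay above all others. The fitted rise was 2.41 ± 0.33 (5.31-fold, adjusted p = 1.55e-05) and 4.78 ± 0.37 (27.4-fold, adjusted p = 1.55e-09). Since the TRα1+m water level (5.96 ± 0.61, SD, n = 5) lay below the negative controls, the fold there depends on values within background, and raising all values to that level gave a rise of 2.26 (wild type) and 4.03 (TRα1+m, 16.3-fold).

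Sp100, a nuclear body protein, ran from 12.30 to 12.56 (median 12.39) in wild type on water and from 13.24 to 13.64 (median 13.51) on T3. In TRα1+m it read 11.37, 12.01, 11.81, 11.56 and 11.86 on water and 13.47, 13.51, 13.29, 13.65 and 13.58 on T3. All TRα1+m water arrays lay below all wild-type water arrays, whereas the T3 groups overlapped. The rise was 1.08 ± 0.11 (adjusted p = 2.97e-07) and 1.78 ± 0.12 (adjusted p = 2.18e-10). Of the ISGF3 components, Stat2 rose by 0.93 ± 0.15 (adjusted p = 9.19e-05) and 1.55 ± 0.16 (adjusted p = 2.26e-07), and Irf9 by 1.01 ± 0.14 (adjusted p = 9.51e-06) and 1.33 ± 0.15 (adjusted p = 4.91e-07). Irf8, a factor of macrophage and dendritic lineages, differed by 0.04 ± 0.14 (adjusted p = 0.929) in wild type and by 0.33 ± 0.16 (adjusted p = 0.186) in TRα1+m, and lay below the negative controls in all groups but TRα1+m on T3. With values raised to the negative controls it was called in TRα1+m (0.25, adjusted p = 0.0474). Nmi and Ifi35, partner proteins released as danger signals, differed by 0.31 ± 0.12 and 0.35 ± 0.13 in wild type without a call (adjusted p = 0.109 and 0.0861). With values raised to the negative controls, Ifi35 was called in wild type (adjusted p = 0.0444) and Nmi was not (adjusted p = 0.0563).

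Among the GTPases, the guanylate-binding proteins, which coat intracellular pathogens, rose in both genotypes, and of the immunity-related GTPases Irgm1 was called in both. Gbp3 ran from 9.53 to 10.26 (median 10.01) in wild type on water and from 10.94 to 11.53 (median 11.32) on T3. In TRα1+m it read 8.47, 9.30, 9.83, 9.02 and 9.76 on water and 12.19, 12.38, 12.19, 12.63 and 12.76 on T3. The T3 arrays of TRα1+m were the highest of the 4 groups without overlap. The rise was 1.33 ± 0.20 (2.52-fold, adjusted p = 3.16e-05) and 3.15 ± 0.21 (8.89-fold, adjusted p = 2.13e-10). Gbp7 ran from 10.99 to 11.81 (median 11.38) on water and from 12.04 to 12.56 (median 12.24) on T3 in wild type, and in TRα1+m read 10.93, 11.59, 11.79, 11.13 and 11.59 on water and 12.79, 13.16, 13.17, 13.21 and 13.43 on T3. Its water groups coincided and its T3 groups did not overlap with each other, with rises of 0.86 ± 0.16 (adjusted p = 0.000377) and 1.75 ± 0.17 (adjusted p = 7.74e-08). Igtp and Iigp1, mouse GTPases best known as interferon γ targets, differed by 0.12 ± 0.28 (adjusted p = 0.866) and 0.28 ± 0.23 (adjusted p = 0.521) in wild type, and by 0.90 ± 0.31 (adjusted p = 0.0542) and 0.69 ± 0.25 (adjusted p = 0.0626) in TRα1+m, where all 5 T3 arrays exceeded the water mean. In TRα1+m both were called after quantile normalization (adjusted p = 0.0381 for Igtp and 0.0436 for Iigp1), after centring on the negative controls, and with values raised to them (adjusted p = 0.0361 and 0.0403).

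Of the remaining members, Xaf1, a proapoptotic protein, ran from 7.92 to 8.69 (median 8.39) in wild type on water and from 9.01 to 9.67 (median 9.57) on T3. In TRα1+m it read 7.89, 8.74, 8.93, 8.23 and 8.41 on water and 10.48, 10.51, 10.45, 10.86 and 11.12 on T3. The water arrays of the genotypes overlapped and the T3 arrays did not, with rises of 1.08 ± 0.17 (adjusted p = 8.97e-05) and 2.24 ± 0.19 (adjusted p = 8.32e-09). Ifi204, a mouse DNA-binding protein of the IFI16 type, ran from 10.63 to 11.34 (median 11.04) to 11.77 to 12.16 (median 11.95) in wild type, and in TRα1+m read 11.04, 11.38, 11.35, 11.09 and 11.40 on water and 12.88, 12.48, 12.68, 12.48 and 12.38 on T3. It rose clear of its water arrays in both, by 0.96 ± 0.13 (adjusted p = 9.94e-06) and 1.33 ± 0.14 (adjusted p = 2.54e-07). Ifi27, a small membrane protein, differed by 0.37 ± 0.25 (adjusted p = 0.415) and 0.52 ± 0.27 (adjusted p = 0.235).

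**Figure D2:**
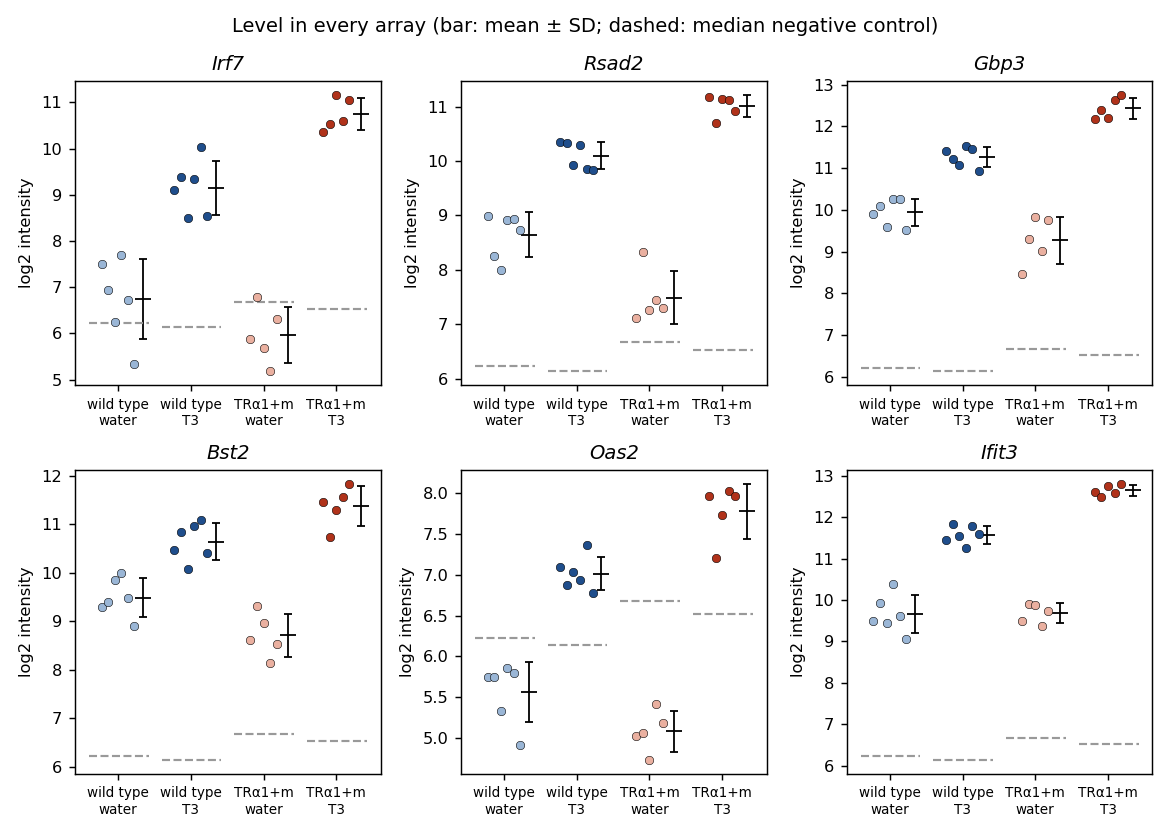
Log2 intensity (vertical axis) of Irf7, Rsad2, Gbp3, Bst2, Oas2 and Ifit3 in every array of the 4 groups, with the mean ± SD at the right of each group and a dashed line at the median negative-control probe set. The T3 arrays of TRα1+m are the highest group for all 6 genes, with overlap with wild type on T3 for Bst2 and Oas2, and the means of Irf7 on water in TRα1+m and of Oas2 on water in both genotypes lie below the dashed line.

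The T3 effect was larger in TRα1+m than in wild type for 43 of the 44 members, where 48.5% of all probe sets had the larger T3 difference in TRα1+m. The median difference between the effects was 0.64, and the 43 of 44 held under quantile normalization and under centring on gene or negative-control medians, with 50.6%, 48.6% and 60.5% of all probe sets. With values raised to the negative controls, the effect was larger in TRα1+m for 41 of the 43 members still tested. Across the 44 genes, which are not independent replicates, the T3 differences of the genotypes ran parallel (Pearson's r = 0.856, Spearman's rho = 0.866), and the median ratio was 1.67. Taken gene by gene, the difference between the effects passed the test for 5 members (against 0.185% of all probe sets), and for 0 in the opposite direction (against 0.0901%, and 0 members at an unadjusted p below 0.05). These were Rsad2 at 2.07 ± 0.29 (adjusted p = 0.000712), Gbp3 at 1.82 ± 0.29 (adjusted p = 0.00291), Oas2 at 1.25 ± 0.25 (adjusted p = 0.0233), Irf7 at 2.37 ± 0.50 (adjusted p = 0.0342) and Bst2 at 1.51 ± 0.32 (adjusted p = 0.0415). After quantile normalization 10 members passed (against 0.294%), with Ifih1, Ifit1, Ifit3, Sp100 and Xaf1 added. Rsad2 and Gbp3 passed under all 34 alternatives run, Oas2 under 28, Irf7 under 17 and Bst2 under 14. For Oas2, raising values to the negative-control level left 0.31 (adjusted p = 0.57), so its difference rests on values within background. Xaf1 narrowly missed the test in the deposited values (1.16 ± 0.26, adjusted p = 0.0538).

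Untreated TRα1+m hearts were compared with untreated wild-type hearts to see the members without added hormone, and there the scale decided the count. In the deposited values 6 members were called higher, against 46.5% of all probe sets, and 7 lower, against 8.12%, with a member median of -0.00 beside 0.36 for all probe sets. After quantile normalization 0 were called higher (19.1% of all probe sets) and 18 lower (20.5%), with a member median of -0.29. The 7 genes lower in the deposited values, Rsad2, Isg20, Bst2, Sp100, Gbp3, Nmi and Oas2, had adjusted p-values below 0.05 on both scales, though Oas2 lay below the negative controls in both water groups. Rsad2 fell by 1.15 ± 0.20 (2.22-fold, adjusted p = 6.93e-05), or by 1.55 after quantile normalization, and all 5 TRα1+m arrays lay below the wild-type mean. Sp100 was lower by 0.69 ± 0.12 in the deposited values (fold 0.621 of wild type, adjusted p = 4.70e-05), without overlap between the groups, and differed by -0.80 after quantile normalization. Nmi stood at 7.12 ± 0.28 against 7.70 ± 0.16 (adjusted p = 0.000766), and differed by -1.01 after quantile normalization. The 6 called higher, Parp9, Mx2, Irf8, Usp18, Dtx3l and Cmpk2, lost the call after quantile normalization. Parp9 went from 0.77 ± 0.20 (adjusted p = 0.00282) to 0.37 (adjusted p = 0.133), Irf8 from 0.64 ± 0.15 (adjusted p = 0.00118) to 0.14 (adjusted p = 0.482, with both water groups below the negative controls), and Dtx3l from 0.58 ± 0.13 (adjusted p = 0.000625) to 0.17 (adjusted p = 0.303).

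**Figure D3:**
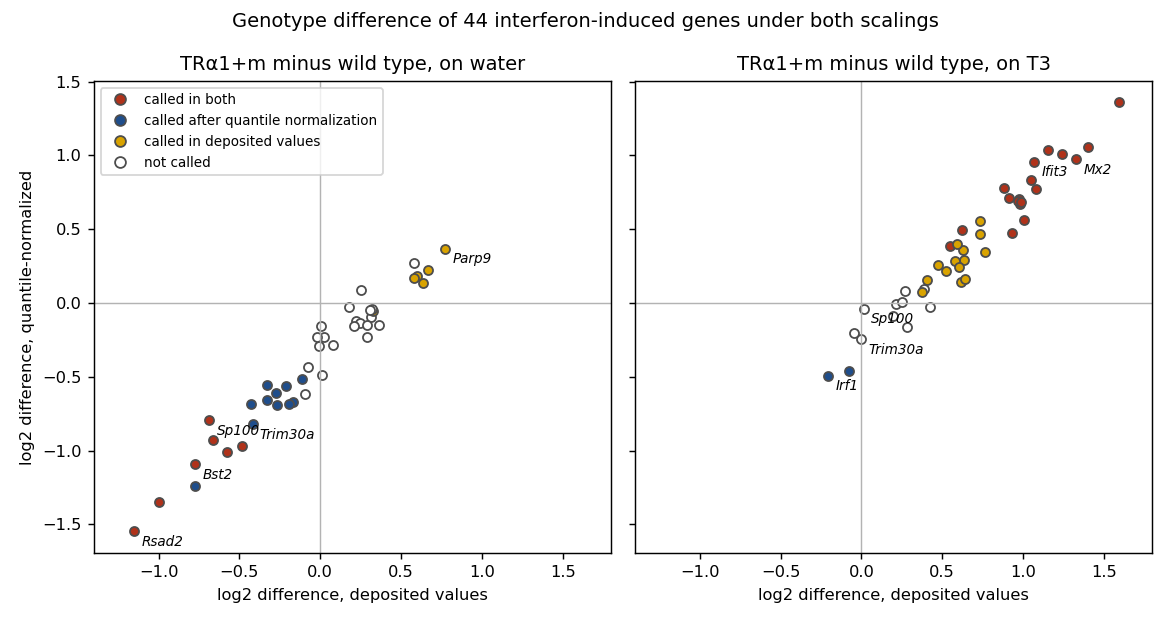
Difference between TRα1+m and wild type for the 44 members on water (left) and on T3 (right), with the log2 difference in the deposited values on the horizontal axis and after joint quantile normalization on the vertical axis, coloured by the scale on which the gene was called. On water the genes called on both scales all lie below 0, and on T3 they all lie above 0.

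On T3 most members stood higher in TRα1+m, by an amount that depended on the scale. In the deposited values 32 were called higher in TRα1+m (44.6% of all probe sets) and 0 lower (6.3%, and 0 members at an unadjusted p below 0.05), with 40 differences above 0 and a median of 0.63. After quantile normalization 18 were called higher (17.8%) and 2 lower (17.9%), the latter being Nmi and Irf1, with a median of 0.35. Among the members called higher on both scales, Ifi35 differed by 0.99 ± 0.14 (adjusted p = 5.34e-06) and by 0.68 after quantile normalization, and Cmpk2 by 0.98 ± 0.13 (adjusted p = 4.16e-06) and 0.71. Xaf1 differed by 1.24 ± 0.18 (adjusted p = 1.09e-05) and 1.01, Ifit3 by 1.07 ± 0.17 (adjusted p = 3.28e-05) and 0.96, Mx2 by 1.33 ± 0.22 (adjusted p = 3.64e-05) and 0.97, and Irf8, which was not above the negative controls in wild type, by 0.93 ± 0.15 (adjusted p = 3.10e-05) and 0.48. Sp100 differed by 0.01 in the deposited values (95% confidence interval -0.23 to 0.25) and by -0.04 after quantile normalization, but by -0.48 (adjusted p = 0.00383) when arrays were centred on the median of gene probe sets. Trim30a differed by -0.00 (-0.52 to 0.52), by -0.25 and by -0.50 (adjusted p = 0.132) on those scales. Irf7 was the furthest apart in the deposited values, at 1.59 ± 0.35 (adjusted p = 0.000718), and differed by 1.36 (adjusted p = 0.00374) after quantile normalization.

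Setting T3-treated TRα1+m hearts against untreated wild-type hearts asks how far high hormone carries the mutant beyond the normal state, and it shares its arrays with the comparisons above. Here 42 members were called higher (46.8% of all probe sets) and 0 lower (8.29%, and 0 members at an unadjusted p below 0.05), with a median of 1.57. After quantile normalization 40 were called higher (21.1%), with a median of 1.17. The smallest adjusted p-values belonged to Ifit3 at 2.99 ± 0.17 (7.93-fold, adjusted p = 2.93e-11) and Cmpk2 at 2.09 ± 0.13 (adjusted p = 9.07e-11). They were followed by Oasl2 at 2.79 ± 0.19 (adjusted p = 3.87e-10), Usp18 at 2.51 ± 0.18 (adjusted p = 8.66e-10), Xaf1 at 2.32 ± 0.18 (adjusted p = 2.39e-09) and Dtx3l at 1.61 ± 0.13 (adjusted p = 2.71e-09). Only Irf1, an early interferon γ target, and Nmi were not called, at 0.28 ± 0.16 and 0.24 ± 0.13, and after quantile normalization Mx1 and Isg20 joined them (adjusted p = 0.123 and 0.0991).

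Upstream of the members, the interferon genes themselves gave no called change between T3 and water within a genotype. Of 21 listed type I, II and III interferon genes 16 could be tested, and limma called 0 with T3 in wild type (0 at an unadjusted p below 0.05) and 0 in TRα1+m (2 at an unadjusted p below 0.05, both lower), with medians of -0.03 and -0.13. In the 4 groups 12 to 14 of the 16 lay below the negative controls, so small amounts of their transcripts were not measurable. Ifna5, which lay above the negative controls, stood at 7.94 on water and 7.89 on T3 in wild type and at 8.66 and 8.63 in TRα1+m. Among 9 receptor and JAK-STAT genes, Ifngr1, Jak1 and Jak2 rose in wild type (0.46, 0.57 and 0.65), and these with Ifnar2 and Ifngr2 in TRα1+m (0.37 to 0.54). Il10rb, a shared subunit of the interferon λ and interleukin 10 receptors, fell by 1.07 in wild type and by 0.47 in TRα1+m.

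Of 15 genes that sense nucleic acids or relay the signal to interferon genes, 4 rose and 1 fell in wild type, and 5 rose and 1 fell in TRα1+m. Among all probe sets, 6.26% rose and 6.49% fell in wild type, and 8.24% rose and 6.92% fell in TRα1+m. Tlr7, the endosomal receptor of single-stranded RNA, rose most, by 1.42 ± 0.17 and 2.80 ± 0.19, followed by Sting1, the adaptor of cytosolic DNA sensing, by 0.97 ± 0.19 and 1.13 ± 0.21, and Tlr3 by 0.77 in each genotype. Tlr9 was also called in wild type and Tlr8 and Cgas in TRα1+m, but Tlr9 and Cgas lay below the negative controls in all 4 groups and Tlr8 did so in TRα1+m on water. In turn, Ticam1 in wild type and Irf3 in TRα1+m were the falls, by 0.50 and 0.63. Of 12 genes that brake or process the response, 3 rose and 3 fell in wild type and 4 rose and 1 fell in TRα1+m, beside the same shares of all probe sets. Ptpn6 (SHP-1, a phosphatase of blood cells) was called at 0.50 and 1.74, with every group but TRα1+m on T3 below the negative controls. Adar, which edits double-stranded RNA, rose by 0.42 and 0.80, and Uba7, the activating enzyme of ISG15, by 0.62 and 0.59. Pias1, a SUMO ligase, fell by 0.45 and 0.53.

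**Figure D4:**
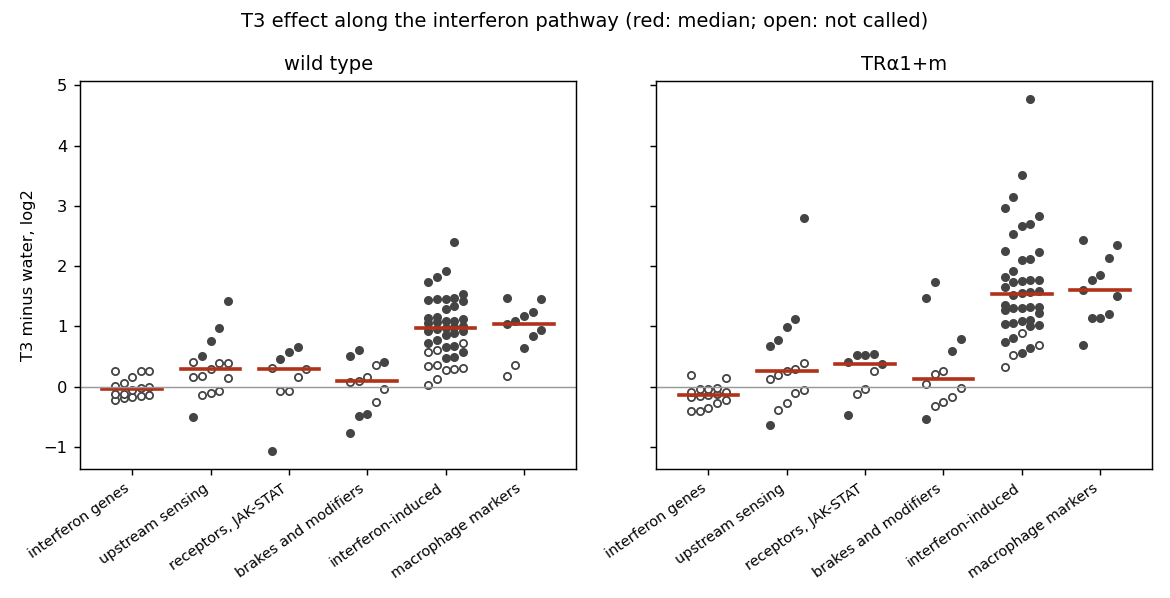
T3 minus water (log2, vertical axis) for each tested gene of the interferon genes, upstream sensing, receptors and JAK-STAT, brakes and modifiers, the 44 interferon-induced members and the macrophage markers, in wild type (left) and TRα1+m (right), with red lines at the medians and open circles for genes not called. The interferon genes centre on -0.03 and -0.13, the members on 0.97 and 1.54.

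Markers of other cells were read beside the members, since in RNA of whole hearts fewer cells of a type and less RNA per cell cannot be told apart. Macrophage markers rose with T3 as the members did, with medians of 1.04 and 1.60. In wild type 9 of 11 were called higher (6.26% of all probe sets) and in TRα1+m 11 of 11 (8.24%). Their summed log2 intensity ran from 13.44 to 14.25 in wild type on water, 14.89 to 15.07 on T3, 12.85 to 13.34 in TRα1+m on water and 14.87 to 15.27 on T3. In this sum of linear intensities the brightest markers, Lyz2 and Mrc1, weigh most. C1qb, a complement subunit made by resident macrophages, rose by 1.46 ± 0.16 and 2.35 ± 0.17, and Lyz2, lysozyme of myeloid cells, by 1.48 ± 0.17 and 2.44 ± 0.18. Of these 11 markers only Cx3cr1 lay below the negative controls, in both water groups. The part of macrophages in the rise of the members was not tested.

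As for the members, the T3 effect on macrophage markers was larger in TRα1+m, for 11 of 11 (48.5% of all probe sets). The median difference between the effects was 0.67, against 0.64 for the members, and 1 marker was called (0.185% of all probe sets). On T3, 10 of the 11 markers were higher in TRα1+m in the deposited values, with a median of 0.34 beside 0.35 for all probe sets. Of the 11, 5 were called higher (44.6% of all probe sets) and 1 lower (6.3%). After quantile normalization 2 were called higher (17.8%) and 1 lower (17.9%), with a median of 0.12 beside -0.00. The mean of the 44 members ran from 7.89 to 8.51 in wild type on water, 8.83 to 9.36 on T3, 7.92 to 8.28 in TRα1+m on water and 9.71 to 9.95 on T3, so its T3 groups did not overlap between genotypes in the deposited values. The T3 groups ran from 9.03 to 9.48 and from 9.59 to 9.80 after quantile normalization, and overlapped at 9.05 to 9.61 and 9.53 to 9.84 after centring on the negative controls. Most other immune markers were not above background. All 5 B cell and all 7 neutrophil markers lay below the negative controls in every group, as did 5 of 6 NK cell markers, so changes in these cells were hardly measurable through them. Of the T cell and the plasmacytoid dendritic cell markers, 2 of 6 each lay below in every group and 4 of 6 each in at least 1 group. The T cell markers Cd4 and Cd28 lay above in every group. In limma, 1 NK cell marker was called higher with T3 in wild type (Gzma) and 2 in TRα1+m (Gzma and Klrk1). All 6 NK cell markers lay below the negative controls in both wild-type groups and in TRα1+m on water. After quantile normalization 0 were called higher in wild type. In each genotype 1 T cell marker (Cd28, -0.62 and -0.83) and 1 plasmacytoid dendritic cell marker (Cox6a2, also a muscle gene) were called lower. Endothelial markers were called higher in 4 and 5 of 7 cases and fibroblast markers in 6 and 3 of 7. Of all probe sets, 6.26% were called higher and 6.49% lower with T3 in wild type, and 8.24% and 6.92% in TRα1+m. The cardiomyocyte markers showed the labelled tissue in every array, with a summed log2 intensity of 21.39 to 21.61. With T3, 0 of the 6 were called higher and 1 lower in wild type, and 1 higher and 0 lower in TRα1+m.

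**Figure D5:**
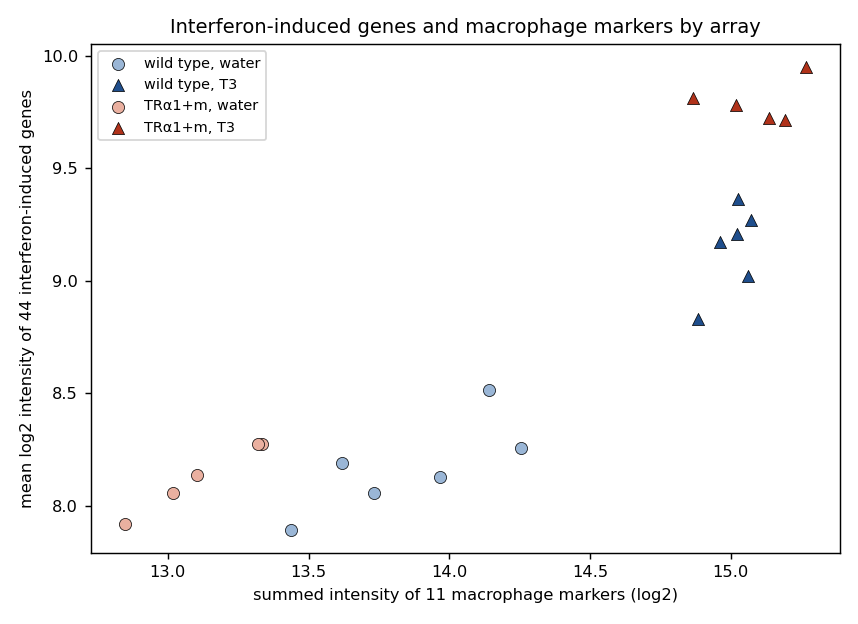
Mean log2 intensity of the 44 interferon-induced members (vertical axis) against the summed intensity of 11 macrophage markers (log2, horizontal axis), 1 point per array, with circles for water and triangles for T3. Both T3 groups lie between 14.87 and 15.27 on the horizontal axis, and on the vertical axis the TRα1+m arrays at 9.71 to 9.95 lie above the wild-type arrays at 8.83 to 9.36.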

How the data were processed

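RNA of 22 whole hearts was hybridised to Clariom S Mouse arrays, 1 per heart. The authors deposited log2 intensities per probe set, obtained with RMA (background correction, between-array normalization and probe summary), as the notes of the submitters state, in Transcriptome Analysis Console 4.0.1. Whether both genotypes were normalized together, and the genome build, are not given in the sources used here. Such a step can move all genes of a genotype at once, which is why comparisons between genotypes are given on a second scale.

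Genes were named through the platform's annotation table. The functions lmFit and eBayes of limma 3.58.1 (R 4.3.3) estimated 1 mean per group from all arrays, and p-values were adjusted by Benjamini-Hochberg over the 21092 probe sets averaging more than 4 on the log2 scale. The test was checked on simulated data. Confidence intervals are at 95%, and precision is limited by how many arrays each group holds. The share of identical values between replicates of a group was at most 0.0312%, so no pair of arrays within a group held the same data. Arrays of different groups were not compared in this way. Alternatives covered scaling (joint quantile normalization, centring on the median of genes or of negative controls), filter, variance model, array weights, a fold minimum, a block for the replicate number and the omission of each array in turn. An alternative that raised values to the median negative control of their array before the fit (13079 probe sets above it on at least 5 arrays) was chosen after seeing the data. Summed marker levels are log2 of the sum of linear intensities.

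The members and lists were chosen with earlier results of these data known. By role, the member with the largest mean T3 effect and the one with the highest mean intensity were described array by array, as were members that passed the interaction test. For these genes every TRα1+m array was given, and the lowest, median and highest array of wild type. Full fits were given for the 8 largest T3 effects in each genotype, for members not called, and for the 6 smallest p-values in each genotype comparison and the interaction, with other members named for their role. Promoter windows are from RefSeq (GRCm38.p6).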

Additional observations from a re-analysis of the deposited data

Results flagged for a closer look

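In a pair of the 52 groups of 5 or 6 arrays examined, 1 array stood far from the others, where chance alone flags about 1 in 20 groups. Rsad2 read 8.33 in replicate 2 of TRα1+m on water, with the nearest array at 7.44. Trim30a read 9.21 in replicate 6 of wild type on T3, with the nearest array at 9.79.

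For 8 genes the T3 effect differed between the genotypes by the test of the interaction in limma, and in each case it was larger in TRα1+m. Among the interferon-induced genes the differences between the effects were 2.37 for Irf7, 2.07 for Rsad2, 1.82 for Gbp3, 1.51 for Bst2 and 1.25 for Oas2. Outside them they were 1.38 for the RNA receptor Tlr7 (adjusted p = 0.0147), 1.23 for the phosphatase Ptpn6 (adjusted p = 0.0181) and 0.97 for the complement gene C1qa (adjusted p = 0.0318). Ptpn6 lay below the negative controls in every group but TRα1+m on T3, Oas2 in both water groups, and Irf7 in TRα1+m on water. With values raised to the negative controls, the difference between the effects for Irf7 was 1.77. C1qa is a macrophage marker, and the part of macrophages in the other differences was not tested.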

How the results depend on the processing

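The T3 counts stayed within 1.5 times their value under every alternative run except a fold minimum in wild type. Members called higher with T3 ranged from 32 to 36 in wild type and from 39 to 42 in TRα1+m with each array left out in turn, and 0 were called lower in any of these. A 2-fold minimum left 20 in wild type. With values raised to the negative controls, 33 and 38 of the 43 members still tested were called, and 7 passed the interaction test. In that fit 40 of the 43 T3 differences lay above 0 in wild type, and all 43 did in TRα1+m.

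Comparisons of genotypes moved with the scale. On water, members called higher and lower numbered 0 and 18 after quantile normalization and 0 and 23 after centring on gene or on negative-control medians. They numbered 10 and 11 without moderation and with a 2-stage adjustment, and 0 and 1 with a 2-fold minimum. On T3 the counts were 18 and 2, 12 and 4, and 15 and 4 under those 3 scalings, and 9 higher with a 2-fold minimum. Leaving out single arrays gave 5 to 9 higher and 6 to 11 lower on water, the 11 without wild-type water replicate 6 and the 9 without wild-type water replicate 4, and 29 to 32 higher on T3. Against untreated wild type, T3-treated TRα1+m kept 42 in every such fit.

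The count of 5 interactions was the least stable. It was 10 after quantile normalization or with trended and robust variances, and 9 after negative-control centring, with a mean log2 intensity above 6 or with array weights. It was 2 without moderation, and 3 without wild-type water replicate 3 and wild-type T3 replicate 6, an alternative chosen after seeing the data. With single arrays left out it ran from 2 (without wild-type water replicate 1 or 5, or TRα1+m T3 replicate 4 or 5) to 8 (without TRα1+m water replicate 2). It was 3 without wild-type water replicate 2 or 4, wild-type T3 replicate 1, 3 or 6, TRα1+m water replicate 1 or 4, or TRα1+m T3 replicate 3. Under the alternatives run, 0 called values of the named genes changed sign.

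Replicate numbers were not used to pair the arrays in the main fit. Of 21 same-numbered pairs, 8 correlated above 0.1 (range -0.20 to 0.29). Between water and T3 the correlations ran from 0.03 to 0.29 in wild type and from -0.12 to 0.13 in TRα1+m. Differently numbered pairs were not examined, so pairing was not tested. With the replicate block 11 members were called lower on water, and 35 and 41 rose with T3. Allowing 1 mismatch raised the share of member promoters with the interferon element to 84.4%, and that of all genes to 38.9%. The alternative probe set could not be run, as 0 members had several, and the interaction has no fit on fewer groups. Signals below the negative controls limit the smallest levels.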
